A study of Homo sapiens with 4 samples.

Results

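The connexin genes GJA1, GJA3, GJA4, GJB1, GJB2, GJB5 and GJC1 were followed in Ishikawa cells, a human endometrial adenocarcinoma line whose cells in this series carry the Y537S change in ESR1, the gene for estrogen receptor alpha. All 7 genes were found by symbol among the 26364 gene symbols of the count table, which holds 20 connexin genes in all. The genes were chosen with earlier results of these data known, GJA1 because its counts differed strongly between the cells of the mutant clones. Differences between the clones are therefore given for these genes as a description, without a test.

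Every library came from cells with the mutant receptor, so no group here carries an unmutated receptor alone. Per the labels, 2 mutant clones (Clone 1 and Clone 2) were kept for at least 5 days in medium stripped of hormones. Treatment lasted 8 h and was either vehicle (0.1% DMSO) or estradiol (E2) at 10 nM. Each group, DMSO and E2, had 2 libraries, 1 from each clone. The count columns carry the tags A4 and B212. The labels do not link these to the clone numbers, and the libraries are named here by tag. Each tag stands for 1 clone, and the labels do not say whether the DMSO and E2 cells of a clone were separate cultures. The p-values therefore measure the spread between these libraries only.

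Connexins are membrane proteins that assemble into hemichannels. Hemichannels of neighbouring cells dock into gap junctions, through which ions and small metabolites pass directly from cell to cell. In the uterus GJA1 (Cx43) is known from stroma and from the muscle wall, where estrogen raises it towards labour, while GJB1 (Cx32) and GJB2 (Cx26) are known from glandular epithelium. Channels differ in permeability and gating with the connexins that build them, so the make-up of the transcript pool is described beside the level of each gene.

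The libraries held 71575816 to 85222856 counts. ESR1, the mutated gene, had levels of 109.9 and 107 CPM (TMM-scaled counts-per-million) in the DMSO libraries of A4 and B212 and 97.0 and 86.5 CPM in the E2 libraries. The counts cannot show the mutation itself. All 10 epithelial and endometrial markers checked (EPCAM, CDH1, KRT8, KRT18 and others) had at least 10 counts in every library, with summed levels of 2305 to 3139 CPM. The endothelial markers PECAM1 and EMCN were at 0 counts in all 4 libraries, and the immune marker CD3E was also at 0.

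Promoter sequences are shown for 3 connexins whose levels related to the tags in different ways: GJA1 differed most, GJA3 less, and the GJB2 libraries of the tags overlapped. RefSeq promoters (GRCh38.p14, 250 bases before and 50 from the start site on) were found for 4 of the 7 genes, GJA1, GJA3, GJB1 and GJB2. They were matched by symbol and not by position, because the reads were aligned to hg19. Capitals mark an AP-1 word (TGANTCA) in GJA1 and GC box words (GGGCGG or its reverse complement) in GJA3 and GJB2. Each sequence runs 5′ to 3′ on the strand of its gene. GJA1 lies at chr6:121435396-121435695 on the plus strand, GJA3 at chr13:20161003-20161302 on the minus strand and GJB2 at chr13:20192889-20193188 on the minus strand.
GJA1: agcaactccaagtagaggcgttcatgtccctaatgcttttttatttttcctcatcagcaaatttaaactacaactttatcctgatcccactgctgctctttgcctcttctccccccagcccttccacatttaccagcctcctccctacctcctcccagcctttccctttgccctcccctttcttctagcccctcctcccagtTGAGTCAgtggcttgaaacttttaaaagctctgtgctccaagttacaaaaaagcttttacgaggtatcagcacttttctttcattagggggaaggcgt
GJA3: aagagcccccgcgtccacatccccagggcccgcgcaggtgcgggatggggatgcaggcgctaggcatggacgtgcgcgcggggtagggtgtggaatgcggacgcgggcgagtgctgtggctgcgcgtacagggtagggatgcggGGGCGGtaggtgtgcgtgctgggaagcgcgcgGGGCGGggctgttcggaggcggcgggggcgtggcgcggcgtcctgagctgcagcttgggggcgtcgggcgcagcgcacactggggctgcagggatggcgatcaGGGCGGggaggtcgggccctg
GJB2: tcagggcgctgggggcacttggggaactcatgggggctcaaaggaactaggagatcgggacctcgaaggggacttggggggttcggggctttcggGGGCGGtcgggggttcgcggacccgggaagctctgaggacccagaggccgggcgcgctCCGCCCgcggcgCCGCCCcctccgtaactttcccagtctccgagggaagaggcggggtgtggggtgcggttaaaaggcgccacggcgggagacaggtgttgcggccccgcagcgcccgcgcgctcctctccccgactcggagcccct

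The windows differed in base composition. GJA1 had 3 CpG and 47% G or C, against 37 CpG and 74.7% in GJA3 and 33 CpG and 71.7% in GJB2. The GJB1 window, not printed here, had 2 CpG and 56%, so a low CpG count was not particular to GJA1. A relation of base composition to the tag differences was not tested. The median over 35116 RefSeq promoters of this length was 14 CpG. The search covered both strands for AP-1, the GC box, the palindromic estrogen response element, its half-site AGGTCA and the TATA box word TATAAA, and no matches overlapped. The AP-1 word of GJA1 lay at positions -48 to -42, counted back from the start site, and 7.71% of all promoters hold such a word. Of all promoters, 45% hold a GC box, 13.8% the half-site, 0.057% the full element and 11.5% the TATA word. A match describes the letters of the window and no more.

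GJA1, the most widely expressed connexin, was the leading connexin of the A4 cells and a minor transcript in the B212 cells. In DMSO it had 407 CPM in A4 and 4.92 CPM in B212, and in E2 461 CPM in A4 and 5.89 CPM in B212. The A4 and B212 libraries did not overlap, and both treatments gave nearly the same distance. By edgeR's quasi-likelihood test 51% of all tested genes were called between the tags. A lack of overlap, here or for the connexins below, thus does not by itself set a gene apart. Its share over all genes was not computed. The ratio of A4 over B212 was 82.7 in DMSO (95% interval 75.1 to 91.3) and 78.2 in E2 (71.1 to 86.2). These intervals are exact conditional binomial intervals on the counts. They cover counting error only, as do all intervals on counts below. The fitted difference of B212 minus A4 was -6.33 ± 0.092 on the log2 scale (SE, 4 libraries, with treatment as a covariate). Among the 15599 genes tested this was the 17th lowest value and the 38th by size in either direction. In such bulk RNA, fewer cells with the transcript and less transcript per cell cannot be told apart.

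Per kilobase of the longest coding transcript, GJA1 exceeded 97% of 14584 tested genes with a known length in the DMSO library of A4, and 28.4% of them in that of B212. In the E2 libraries it exceeded 97.1% in A4 and 30.4% in B212. GJA1 thus remained readily counted in B212, with 420 counts in DMSO and 432 in E2.

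**Figure D1:**
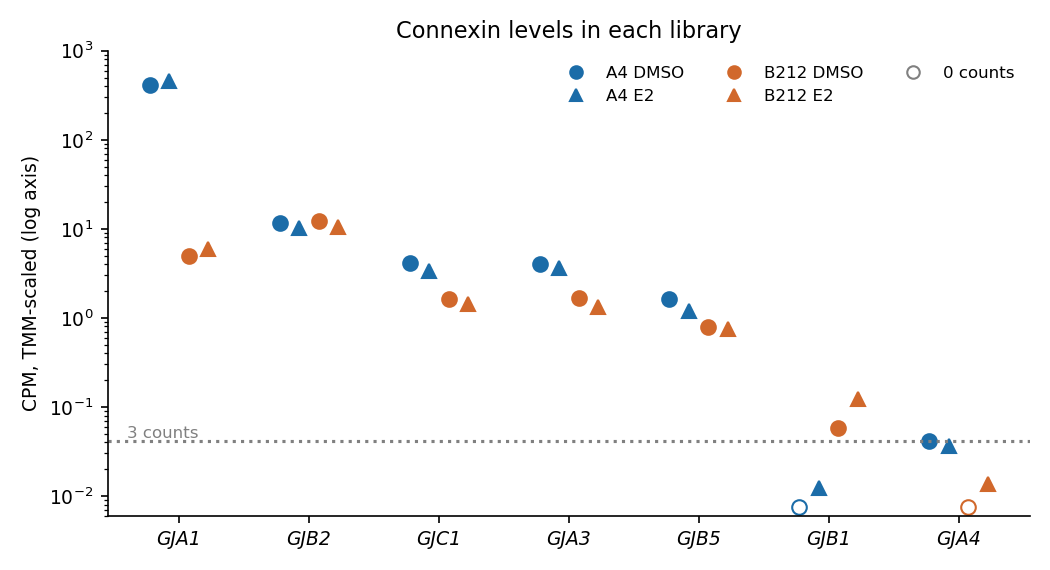
TMM-scaled CPM on a log axis for the 7 connexin genes, with 1 point for each library (blue A4, orange B212, circles DMSO, triangles E2); open symbols at the foot are 0 counts, and the dotted line is the highest level that 3 counts give in a library. GJA1 lies at 407 and 461 CPM in A4 and at 4.92 and 5.89 CPM in B212, whereas the 4 points of GJB2 lie between 10.1 and 12.2 CPM.

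Other transcripts moved with the tags too. The 8 stromal markers had summed levels of 94.7 and 131 CPM in A4 and 35.4 and 43.3 CPM in B212, and COL1A1 made up most of both. COL1A2 had 84 (DMSO) and 66 (E2) counts in A4 and 32 and 22 in B212, and COL3A1 had 83 and 72 against 16 and 14. PDGFRA had 47 and 32 counts in A4 and 27 and 21 in B212, and PDGFRB had 13 and 7 against 1 and 4. DCN had at most 1 count in a library, LUM had 4 and 5 counts in A4 and 0 in B212, and POSTN had 3 and 2 against 2 and 2. The 6 basal epithelial markers summed to 69.5 and 87.4 CPM in A4 and to 12.7 and 17.9 CPM in B212, with KRT5 and KRT6A leading. TP63, another of these markers, went the other way, with 1.41 (DMSO) and 0.707 (E2) CPM in A4 and 2.99 and 2.14 CPM in B212. DSG3 and IVL were at 0 in all libraries, and KRT14 had at most 1 count. The part of these differences in the GJA1 result was not tested.

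GJA3 (Cx46), best known from lens fibre cells, differed less. It had 4.001 CPM (DMSO) and 3.596 CPM (E2) in A4 and 1.65 CPM and 1.32 CPM in B212. All A4 values lay above all B212 values. The ratio of A4 over B212 was 2.42 in DMSO (95% interval 1.97 to 2.98) and 2.72 in E2 (2.15 to 3.46), and the fitted difference was -1.35 ± 0.16 (log2, SE).

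GJC1 (Cx45), a connexin of smooth muscle and of the conduction system of the heart, followed the same order. Its levels were 4.16 CPM (DMSO) and 3.39 CPM (E2) in A4 and 1.63 CPM and 1.42 CPM in B212, again without overlap. The fitted difference was -1.31 ± 0.16 (log2, SE). The level of GJC1 per length depends on the transcript taken: its longest coding transcript has 7640 bases and the median one 1837 bases.

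GJB5 (Cx31.1), a connexin of skin and other stratified epithelia, had 1.62 CPM (DMSO) and 1.18 CPM (E2) in A4. In B212 it had 0.785 CPM and 0.750 CPM. The tags did not overlap, and the ratio of A4 over B212 was 2.07 in DMSO (95% interval 1.52 to 2.84) and 1.58 in E2 (1.121 to 2.236). The counts behind these values were low, 55 to 119 per library. The strand setting of the counting is not given in the sources used here, so reads from the opposite strand over GJB5 and GJA4 cannot be set apart. The same holds for other connexins with an annotated gene on the opposite strand, GJD3, GJB7, GJC3 and GJA5 among them.

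GJB2 (Cx26), known from many glandular epithelia and from the cochlea, had nearly equal levels in both tags. It had 11.8 CPM in A4 and 12.2 CPM in B212 with DMSO, and 10.1 and 10.4 CPM with E2. The libraries of the tags overlapped. The fitted difference was 0.043 ± 0.099 (log2, SE). The 95% interval of the B212 over A4 ratio ran from -0.079 to 0.18 in DMSO and from -0.11 to 0.18 in E2 on the log2 scale. A difference as large as that of GJA3 lay outside both intervals.

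GJB1 and GJA4 were close to the limit of detection. GJB1, a connexin of liver, myelinating cells and glandular epithelium, had 0 (DMSO) and 1 (E2) counts in A4 and 5 and 9 counts in B212. Summed over treatments the ratio of B212 over A4 was 13.7, with a 95% interval of 2.085 to 579 that spans most sizes of difference. GJA4 (Cx37), the connexin of endothelium and oocytes, had 3 and 3 counts in A4 and 0 and 1 counts in B212. All GJA4 values lay at or under the level of 3 counts, 0.0352 to 0.0410 CPM in these libraries, so no fold is given. These 2 genes did not pass the count filter, which left 5 of the 7 genes tested.

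**Figure D2:**
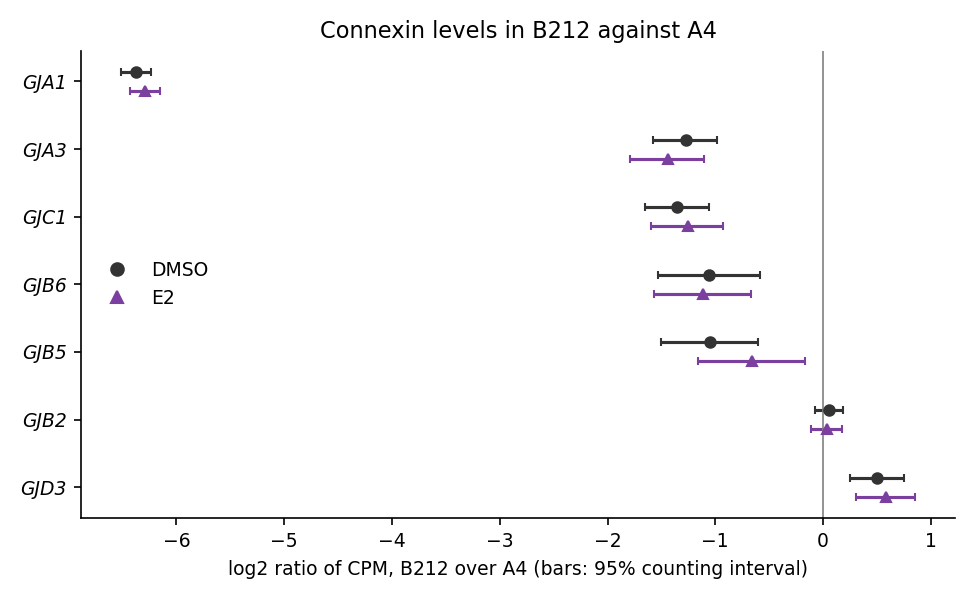
Log2 ratio of CPM in B212 over A4 for the 5 tested genes of the set and 2 other connexins, with circles for DMSO, triangles for E2 and bars for the 95% counting interval. GJA1 stands near -6.3, GJA3, GJC1, GJB6 and GJB5 lie between -1.44 and -0.66, GJB2 lies close to 0, and GJD3 lies above 0.

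The other connexins place these values. Of 13 further connexin genes 5 passed the filter, GJB6, GJB7 and GJD3 among them. By edgeR's quasi-likelihood test with treatment as a covariate, GJB6 (Cx30), a connexin of skin and cochlea, had a B212 minus A4 difference of -1.08 ± 0.22 (log2, SE) and was called lower, with an adjusted p of 0.000350. GJD3 was higher in B212, by 0.54 ± 0.14 with an adjusted p of 0.00393. GJB7 was called higher with an adjusted p of 0.000725, but it rested on 2 counts in A4 and 32 in B212, a ratio of 15.7 with a 95% interval of 3.99 to 135. By DESeq2 or with no treatment term GJD3 was not called. Over all genes tested, 51% were called between the tags, 25.2% higher and 25.8% lower in B212. With library size as the only scaling the split was 4761 higher and 3176 lower genes. Both pannexins tested, channel proteins related to the connexins in topology, were lower in B212: PANX1 by -0.48 ± 0.082 and PANX2 by -0.56 ± 0.11 (log2, SE), with edgeR adjusted p-values of 6.08e-05 and 0.000313.

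Added over all connexin genes, the levels per kilobase were 143 (DMSO) and 158 (E2) CPM per kilobase in A4 and 14.7 and 13.1 in B212. Without GJA1 they were 13.8 and 11.4 in A4 and 13.2 and 11.2 in B212. With median transcript lengths the sums without GJA1 were 15.9 and 13.1 in A4 and 14.2 and 12.1 in B212. On both length scales the sums without GJA1 overlapped between the tags, though A4 was the higher within each treatment. Not divided by length, they were 31.0 and 25.9 CPM in A4 and 25.2 and 21.5 CPM in B212 and did not overlap.

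GJA1 accordingly made up 92.9% of connexin counts in A4 with DMSO (exact Clopper-Pearson 95% interval 92.6 to 93.2) and 94.7% with E2 (94.45 to 94.9). In B212 it made up 16.3% (14.9 to 17.8) with DMSO and 21.5% (19.7 to 23.4) with E2. Per kilobase the GJA1 share was 90.3% and 92.8% in A4 and 10.6% and 14.2% in B212. GJB2 took its place at the head of the B212 pool, with 35.1% (DMSO) and 33.5% (E2) of the level per kilobase against 3.48% and 2.72% in A4.

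The highest levels per kilobase came in a different order in each tag. In A4 GJA1 led with 129 and 146 CPM per kilobase, ahead of GJB2 with 4.98 and 4.29 and GJD3 with 3.35 and 2.71. In B212 the order was GJB2 (5.17 and 4.40), GJD3 (4.74 and 4.05) and GJA1 (1.56 and 1.87). The place of GJD3 depends on its transcript length of 885 bases. By counts GJA1 was above GJD3 in B212, with 420 against 358 (DMSO) and 432 against 263 (E2). GJB2 was above GJD3 in both B212 libraries by a small margin, and the ranges of the 2 genes overlapped across treatments. GJB5, GJA3 and GJC1 were each at 1.20 CPM per kilobase or less in every library. With median transcript lengths GJC1 rose to 2.27 and 1.84 CPM per kilobase in A4 and to 0.887 and 0.772 in B212, which placed it above GJB5.

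**Figure D3:**
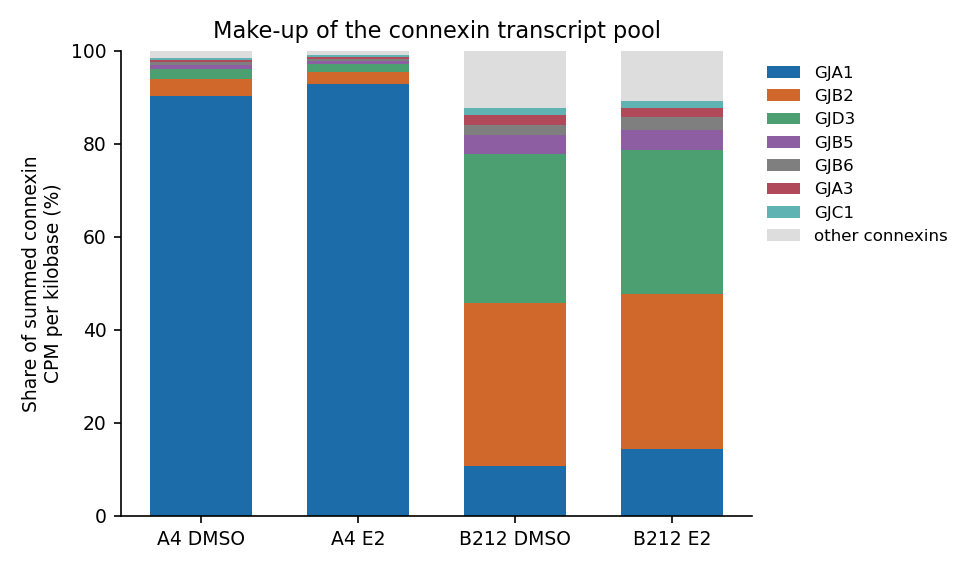
Share of each connexin in the summed connexin level (CPM per kilobase of the longest coding transcript, percent) in the 4 libraries. GJA1 fills 90.3% and 92.8% of the A4 bars and 10.6% and 14.2% of the B212 bars, in which GJB2 and GJD3 are the widest bands.

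Several connexin genes lie side by side, and their neighbours were read from the RefSeq gene order. Around GJA1 on chromosome 6 the 3 nearest tested genes on either side had differences between -0.91 and 0.46 (log2). TBC1D32, FAM184A and MAN1A1 were higher in B212, by log2 fold changes of 0.46 ± 0.093, 0.31 ± 0.10 and 0.45 ± 0.078 (SE), with edgeR adjusted p-values of 0.000341, 0.0191 and 7.34e-05. HSF2 (0.069) and SERINC1 (0.16) did not pass the threshold, with adjusted p-values of 0.491 and 0.0592 by edgeR. PKIB was lower in B212 by -0.91 ± 0.14, with an adjusted p of 2.81e-05.

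GJA3, GJB2 and GJB6 are adjacent on chromosome 13. GJB2 lies between the other two. Its libraries overlapped between the tags, while those of GJA3 and GJB6 were lower in B212 without overlap. On chromosome 1 the fitted difference of GJB5 was -0.86 ± 0.23 (log2, SE), and 0 of the 6 tested neighbours of GJB5 were called between the tags by edgeR. Of the 6 neighbours of GJC1 on chromosome 17, 4 were called lower in B212 and 0 higher. These counts of 6 stand beside the 51% of all tested genes called between the tags, with 25.8% called lower in B212.

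**Figure D4:**
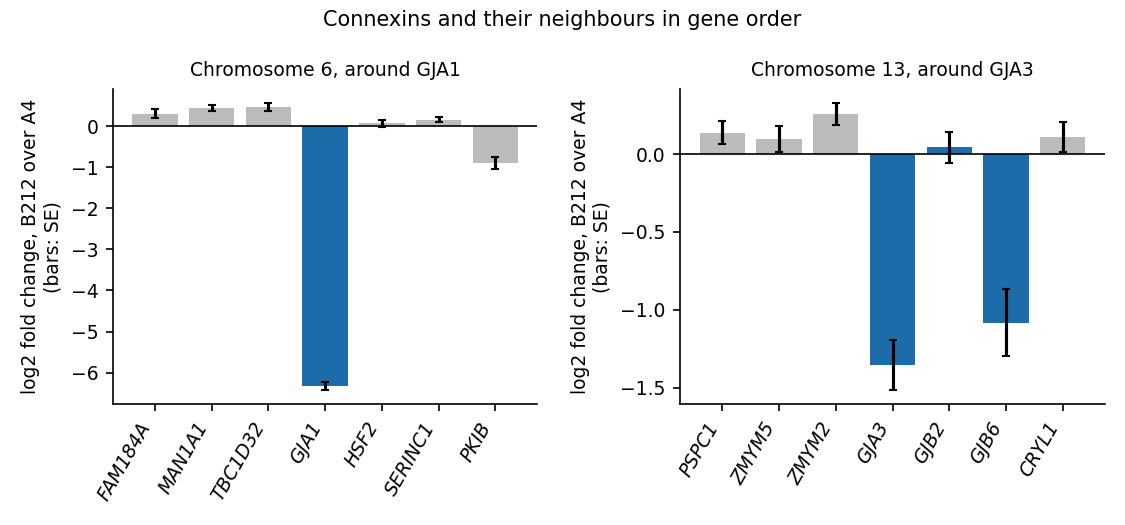
Fitted log2 fold change of B212 over A4 with its SE for GJA1, for GJA3 and for the 3 tested genes on either side of each in gene order (blue, connexins; grey, other genes). GJA1 drops to -6.33 between neighbours that lie between -0.91 and 0.46, and GJB2 stays near 0 between GJA3 and GJB6.

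The 5 tested genes most like GJA1 over the 4 libraries were chosen by the smallest Euclidean distance between log2 CPM values centred on each gene. They were PCDHAC1 (distance 0.344), NRG1 (0.413), RPL39L (0.606), PPP1R1A (0.666) and ZNF462 (0.963), and 4 libraries are few points for a likeness. NRG1, a growth factor that binds ERBB receptors, had 24.9 (DMSO) and 19.2 (E2) CPM in A4 and 0.246 and 0.259 CPM in B212. PPP1R1A, an inhibitor of protein phosphatase 1, had 89.6 and 95.8 CPM in A4 and 1.76 and 1.81 CPM in B212. PCDHAC1, a clustered protocadherin whose reads may be shared with its neighbours in the cluster, had 167 and 160 counts in A4 and 0 in both B212 libraries. Against 3 counts over both B212 libraries it was at least 111-fold higher in A4.

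The response to E2 was compared next, to learn whether ligand still moves these genes when the receptor carries the mutation. This contrast was not used to choose the genes. In the edgeR fit without a block 0 of the 5 tested genes were called, and 0 of the 5 had an unadjusted p under 0.05. Over all genes 0% were called, with 150 genes at an unadjusted p under 0.05 and 1 gene called by DESeq2. DESeq2 and limma-voom also called 0 of the 5. The spread within each group included the distance between the tags, and the biological coefficient of variation was 32.2%. With the tag as a replicate block it was 5.99%, 9.56% of all genes were called (6.13% higher and 3.44% lower with E2) and still 0 of the 5. GJA1 and GJB2 had an unadjusted p under 0.05 in this blocked edgeR fit, beside 3953 of all 15599 genes tested. The share of all genes called depended on the fit. It was 4.62% with transcript length and GC content corrected for, 4.6% with DESeq2 size factors and 3.42% by DESeq2, each with the block. With library size only, 911 genes were called higher and 775 lower, against 956 and 536 here. DESeq2 with the block gave no adjusted p for 4 of the 5 genes.

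GJA1 was higher with E2 in both tags by a small amount. Its level went from 407 to 461 CPM in A4 and from 4.92 to 5.89 CPM in B212. The ratio of E2 over DMSO was 1.13 in A4 (95% counting interval 1.115 to 1.149) and 1.20 in B212 (1.04 to 1.37). Fitted without a block, the log2 change was 0.18 ± 2.41 (SE; edgeR adjusted p = 0.9999). Blocking on the tag gave 0.21 ± 0.079 (edgeR adjusted p = 0.101). The blocked 95% interval ran from 0.044 to 0.37. With GC content and transcript length also corrected for, the value was 0.11, with an adjusted p of 0.381 by edgeR.

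GJB2 was lower with E2 in both tags, from 11.8 to 10.1 CPM in A4 and from 12.2 to 10.4 CPM in B212. The ratios were 0.862 (95% counting interval 0.782 to 0.949) and 0.850 (0.773 to 0.934). With the tag as a block the log2 fold change was -0.22 ± 0.099 (SE), with an adjusted p of 0.160 by edgeR and a 95% interval of -0.43 to -0.017. Without the block it was also -0.22, with a SE of 0.17 and an adjusted p of 0.9999 by edgeR.

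GJA3, GJB5 and GJC1 were likewise lower in both tags, by amounts within or close to counting error. With the tag as a block their log2 fold changes were -0.22 ± 0.16, -0.29 ± 0.23 and -0.26 ± 0.16 (SE), and the edgeR adjusted p-values were 0.413, 0.459 and 0.330. Their blocked intervals ran from -0.56 to 0.11, from -0.76 to 0.19 and from -0.59 to 0.075, so changes of that size remain possible. GJB1 had 5 counts with DMSO and 9 with E2 in B212, a ratio of 2.10 with a 95% interval of 0.631 to 7.96. No direction can be read for GJA4.

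**Figure D5:**
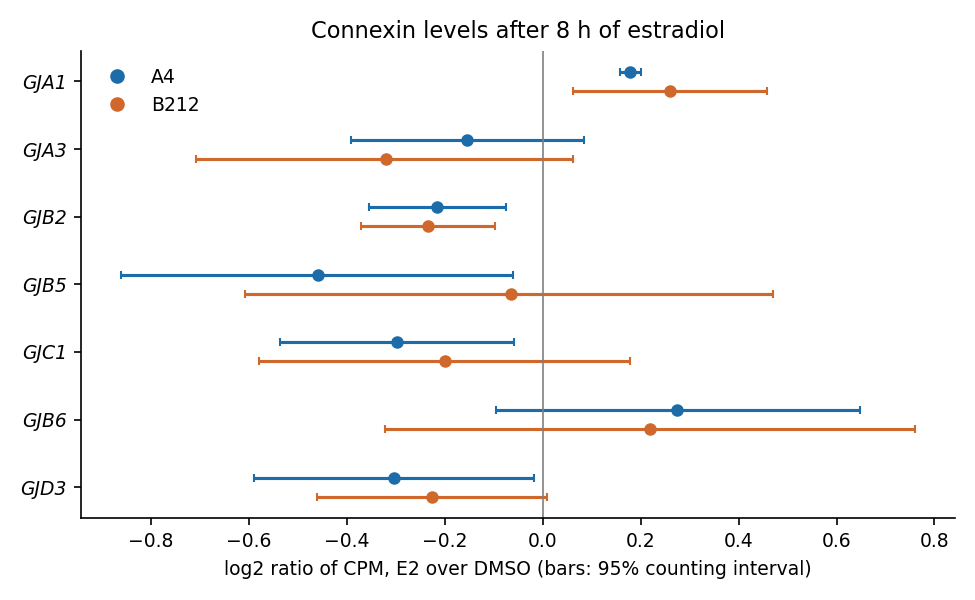
Log2 ratio of CPM with E2 over DMSO within each tag (blue A4, orange B212; bars, 95% counting interval) for the 5 tested genes of the set and 2 other connexins. GJA1 and GJB6 lie above 0 in both tags and the other 5 lie below 0 in both.

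Of the 5 tested genes, 4 were lower in both tags and 1 was higher in both. Among the other connexins and pannexins tested, 5 of 7 were lower in both and 2 higher in both. Over all genes tested, 36.8% were lower in both tags and 33.3% higher in both. The difference in response between the tags was not tested, since each combination had 1 library.

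Genes that act with connexins were taken from 4 lists: scaffold and trafficking partners, adherens junction and desmosome genes, kinases and phosphatases, and transcription factors. The other connexins and pannexins already described formed a further list. Between the tags edgeR called 36 of the 71 tested genes of the 5 lists, 21 higher and 15 lower in B212. Over all genes 51% were called, 25.2% higher and 25.8% lower in B212. These shares stand beside the tag calls of each list below. The median log2 fold change of B212 minus A4 was 0.019 for the lists and 0.0042 for all genes.

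The adherens junction and desmosome genes, whose contacts precede gap junction assembly, included 9 genes higher and 2 lower in B212 among its 16 tested genes. Its median difference was 0.23 (log2). CDH3 (P-cadherin) was higher by 0.74 ± 0.072 and DSC2 (a desmosomal cadherin) by 0.72 ± 0.070 (log2, SE). PKP3 was lower by -0.41 ± 0.078 and NECTIN1, listed as PVRL1, by -0.23 ± 0.088. In this order, edgeR gave adjusted p-values of 4.91e-08, 5.02e-08, 0.000221 and 0.0324.

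Of 16 scaffold and trafficking genes 2 were higher and 5 lower in B212. TJP1 (ZO-1), the scaffold that binds the GJA1 tail, was higher by 0.34 ± 0.071 and DLG1 by 0.28 ± 0.069. The caveolar protein CAV1 was lower by -0.82 ± 0.086 and the chaperone HSPA5 by -0.51 ± 0.074 (log2, SE). The largest edgeR adjusted p of the 4 was that of DLG1, 0.00212. Among 15 kinases and phosphatases 2 were higher and 1 lower: CAMK2D was higher by 0.74 ± 0.15, PRKCE by 0.38 ± 0.13, and PRKCA, which phosphorylates the GJA1 tail, was lower by -0.77 ± 0.085. Their edgeR adjusted p-values were 0.000357, 0.0170 and 2.69e-07.

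Of 17 tested transcription factors 6 were higher and 4 lower. TFAP2C and TFAP2A, AP-2 factors of epithelial genes, were higher by 1.36 ± 0.12 and 1.27 ± 0.13 (log2, SE). ZEB1, a repressor of epithelial genes, was lower by -2.23 ± 0.15, from 6.40 and 6.62 CPM in A4 to 1.36 and 1.40 CPM in B212. The largest edgeR adjusted p of the 3 was 5.85e-08. Of 4 AP-1 genes in the list, JUND (0.65 ± 0.071) and FOS (0.63 ± 0.19) were higher in B212 and JUNB lower (-0.35 ± 0.088). JUN (-0.18 ± 0.086) did not pass. These 4 values, in the order JUND, FOS, JUNB and JUN, came with edgeR adjusted p-values of 2.42e-07, 0.0113, 0.00242 and 0.0936. JUND, FOS and JUN were named after their values were seen, because of the AP-1 word in the GJA1 promoter printed above. Of the genes named from the 4 lists for the tags, NECTIN1, PRKCE and FOS were not called by DESeq2. With no treatment term these 3 and TJP1, DLG1 and JUNB were not called.

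With E2, edgeR called 0 of the 71 list genes when the tag was left out of the model. Blocking on the tag gave 10 calls (2 higher, 8 lower), beside 9.56% of all genes. The blocked median was -0.11 for the lists and -0.0081 for all genes. The adherens junction and desmosome list held 5 of the lower genes. JUP (plakoglobin) fell in A4 from 169 to 119 CPM and in B212 from 198 to 140 CPM, a blocked log2 fold change of -0.51 ± 0.068 (SE) with an adjusted p of 0.000279 by edgeR. CTNNA1 (alpha-catenin) changed by -0.29 ± 0.073, NECTIN1 by -0.36 ± 0.089 and DSP by -0.29 ± 0.071. Their edgeR adjusted p-values with the block were 0.0170, 0.0165 and 0.0151. JUP and CTNNA1 were called in all 6 fits with the block.

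Of the kinases, PRKCD was lower with E2 by a blocked log2 fold change of -0.33 ± 0.082 and the mitotic kinase CDK1 higher by 0.34 ± 0.077 (SE), with edgeR adjusted p-values of 0.0159 and 0.0106. Each was called in 5 of the 6 blocked fits. JUN was lower by -0.30 ± 0.086, with an adjusted p of 0.0340 by edgeR, and was called in 3 of the 6. TMED2, a cargo receptor of the secretory pathway, was higher by 0.24 ± 0.076 with an edgeR adjusted p of 0.0497, and was called in 1 of the 6.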

How the data were processed

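Poly(A)-selected stranded libraries were made from 500 ng of RNA, per the labels' protocols. The deposited values are raw read counts per gene symbol. The submitters' processing notes name HISAT2, SAMtools, featureCounts and DESeq2 and the build hg19; versions, strand setting and annotation are not given in the sources used here. A further 4 count columns match no sample in the labels and were left out.

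Genes were kept by filterByExpr of edgeR 4.0.16 (minimum count 10), which left 15599, and scaled by TMM. Tests were edgeR's quasi-likelihood test with Benjamini-Hochberg adjustment over all tested genes at a threshold of 0.05. Each SE is the absolute log2 change divided by the square root of F. E2 was compared without a block, with the tag as a block beside it. The DMSO and E2 columns of a tag are taken as the same clone from the column names. Their deviations from the group means correlated across genes (Pearson r = 0.871), a single independent value. Tags were compared with treatment in the model.

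Lengths and GC content came from the longest coding GENCODE 29 transcript per symbol, and gene order and promoters from RefSeq (GRCh38.p14). Of the tested genes, 93.5% had a length. Intervals on counts are exact 95% intervals. R 4.3.3, limma 3.58.1, DESeq2 1.42.0, mgcv 1.9.3, Python 3.11.15 and matplotlib 3.10.9 were used, and scripts were tested on simulated data.

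The 7 genes and the lists were chosen with earlier results of these data known. From each list the text names the 2 genes highest and 2 lowest in B212 among those called with a mean of at least 50 counts, and up to 4 genes called for E2 by smallest p. It also names connexins with at least 10 counts in a library, the 5 genes most like GJA1 and neighbours in gene order. PANX1, FOS, JUND and the connexins with fewer counts were named after their values were seen. Some genes that this rule names are not reported here.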

Additional observations from a re-analysis of the deposited data

How the results depend on the processing

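The E2 result for the connexin genes, 0 of 5 called, was the same under other scalings and filters and with the tag as a replicate block. In DESeq2 with the block, 4 of the 5 had no adjusted p and only GJA1 could be called, and was not. The fits of all 4 libraries without a block called 0 genes over all genes, or 1 by DESeq2. Their 0 of 5 therefore carries no weight for the connexins, and only the blocked fits bear on it. The blocked adjusted p-values ranged from 0.0665 (GJB2) to 0.591 (GJA3). The 0 list genes called with E2 became 10 with the replicate block, 6 when length and GC were corrected for as well, and 7, 10, 6 and 9 with the block under DESeq2 size factors, library size only, DESeq2 and limma-voom. For 21 list genes DESeq2 with the block left the adjusted p empty. Over all genes the 1492 blocked calls became 720 with length and GC corrected for, and 717, 1686, 533 and 1138 in the other 4 blocked fits in the same order. The block takes the tag difference out of the residual spread. Without a block, leaving out 1 library leaves the tags unbalanced. The E2 log2 fold changes then ranged from -5.14 to 5.57 (GJA1), -1.11 to 0.57 (GJA3), -0.74 to 0.30 (GJB5), -1.045 to 0.56 (GJC1) and -0.25 to -0.20 (GJB2), so those of GJA1, GJA3, GJB5 and GJC1 changed sign. The lone library of an arm is assumed to vary like the others.

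Between the tags, the 36 list genes became 23 with no treatment term and 7 when a log2 change of 1 or more was also asked for; the cause was not tested for the first. The other alternatives gave 29 to 40. The GJA1 difference was -6.26 with library size only and ranged from -6.37 to -6.29 when libraries were left out, which then allows no test. With median transcript lengths the GJA1 share in A4 became 89.7% and 92.2%. Depth limits GJB1, GJA4 and GJB7.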

Other observations

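Several of the remaining connexin genes had few counts or none. GJC3 had 10 (DMSO) and 6 (E2) counts in A4 and 4 and 0 in B212. GJA5 (Cx40), a connexin of atria and arterial endothelium, had 1 and 0 counts in A4 and 4 and 4 in B212. GJA9, GJA10, GJD2 and GJD4 were at 0 counts in all 4 libraries, which allows up to 3 counts, or 0.0410 CPM in the library with the highest such limit.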
